A study of Mus musculus with 384 samples.

Results

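Transcripts of 7 regional transcription factor genes, *Irx3*, *Irx5*, *Irx6*, *Otx1*, *Pbx3*, *Meis2*, and *Sp8*, were described in single cells of the mouse dopamine transporter (DAT) lineage. The genes were chosen by name, with detection in these cells already known, and all 7 are among the 41267 entries of the deposited count table. Each cell with at least 500000 reads counted on genes was used, which kept 209 of 384 cells, and 10 counts of a gene made a cell positive for it. The values were read against *Th*, which encodes the enzyme that starts dopamine synthesis, *Neurod6* and *Grp*, which mark ventromedial groups of dopamine neurons, and *Gad1*, which encodes an enzyme that makes GABA. Because those values served to choose the genes, detection in all cells and co-detection with these genes are given as a description, with no test.

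The cells came from 8 DATIRESCre;Ai9 mice (also labelled DAT-Cre;Ai9) on the C57BL6/J background, untreated, 3 labelled female (mice 1, 4, and 6, aged 25, 33, and 36 d) and 5 labelled male (mice 2, 3, 5, 7, and 8, aged 27, 27, 28, 24, and 24 d). In these animals Cre is expressed from the DAT locus (*Slc6a3*) and turns on the tdTomato reporter of the Ai9 allele, so that any cell that has ever expressed DAT stays labeled. The dissected midbrain included the hypothalamus, tdTomato-positive cells that excluded propidium iodide were sorted, and each mouse was 1 run of a Fluidigm C1 system. The retained cells numbered 18, 34, 45, 12, 38, 17, 24, and 21 in mice 1 to 8, with a median of 780484 counts per cell (range 500672–1545100) and of 9123 genes detected. No cell barcode was shared and no 2 cells had the same counts. The labels call every cell a dopamine neuron, and *Slc6a3* reached 10 counts in 205 of the 209. The 4 cells below that carried glial genes: 3 had 978 to 1172 counts of the astrocyte gene *Gja1*, and the other had 18441 counts of the myelin gene *Mbp*.

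The Iroquois genes *Irx3*, *Irx5*, and *Irx6*, together with *Pbx3* and *Meis2*, encode homeodomain proteins of the TALE class, which carry 3 additional residues in a loop of the DNA-binding domain. Iroquois factors subdivide the neural tube along its axes during development, and Pbx and Meis proteins bind DNA together with each other and with Hox proteins. *Otx1* encodes a homeodomain protein of the orthodenticle family, which with its relative *Otx2* patterns the forebrain and midbrain, where *Otx2* is also kept in part of the ventral tegmental area (VTA). *Sp8* belongs to another family, the Sp zinc finger proteins, and works in the patterning of the forebrain, so the 7 genes are not all homeobox genes.

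A coding stretch of the homeodomain that takes in the second helix and ends in the third, the part that contacts the bases of DNA, shows how alike these genes are. Each stretch is 96 bases of the GENCODE vM21 coding sequence on GRCm38, printed 5′ to 3′ on the strand of the gene, and the capitals mark the 18 bases that encode the motif WF-N-R of the third helix. The *Irx3* stretch is in exon 2 (chr8:91800502-91800597, minus strand), that of *Irx5* in exon 2 (chr8:92359714-92359809, plus strand), and that of *Irx6* in exon 4 (chr8:92677323-92677418, plus strand). The other 3 stretches cross an exon junction.
Irx3: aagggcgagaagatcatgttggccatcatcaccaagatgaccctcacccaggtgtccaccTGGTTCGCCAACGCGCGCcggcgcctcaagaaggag
Irx5: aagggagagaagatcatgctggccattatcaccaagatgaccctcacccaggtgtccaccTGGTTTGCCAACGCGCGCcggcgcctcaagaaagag
Irx6: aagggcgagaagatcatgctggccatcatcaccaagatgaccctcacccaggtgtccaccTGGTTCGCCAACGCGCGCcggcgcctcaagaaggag
Otx1: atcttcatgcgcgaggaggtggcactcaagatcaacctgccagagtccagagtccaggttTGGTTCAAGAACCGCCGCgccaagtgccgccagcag
Pbx3: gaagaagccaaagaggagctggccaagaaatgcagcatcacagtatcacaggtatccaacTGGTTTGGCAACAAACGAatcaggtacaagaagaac
Meis2: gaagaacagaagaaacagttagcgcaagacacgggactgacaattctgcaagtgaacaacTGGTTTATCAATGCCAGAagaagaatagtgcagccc
The *Sp8* coding sequence held no such motif and 3 matches to a C2H2 zinc finger.

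*Irx3* and *Irx6* were identical at 95 of the 96 bases of the whole stretch, *Irx5* and *Irx6* at 92 (95.8%), and *Irx3* and *Irx5* at 91 (94.8%). The Iroquois stretches shared 36.5–56.3% of bases with those of *Otx1*, *Pbx3*, and *Meis2*. The longest run of identical bases in the transcripts of *Irx3* and *Irx6* was 88 bases. Reads that aligned to more than one of the annotated genes were left out by the authors, so counts of both genes rest on the parts that differ, and whether a read was given to the wrong gene was not tested. Of the 13 cells with a read of *Irx3*, 10 also had one of *Irx6*. A part of the *Irx3* exons (124 bases) also overlaps *Irx3os*, and 152 bases of the *Irx6* exons overlap *Gm45505*, each on the opposite strand, which the library kit does not record. All 3 Iroquois genes lie on chromosome 8, between 91798525 and 92680956 of GRCm38, *Otx1* on chromosome 11, *Pbx3* and *Meis2* on chromosome 2, and *Sp8* on chromosome 12.

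The 7 genes fell into 3 patterns of detection. *Pbx3* was positive in 174 of 209 cells (83.3%, exact 95% interval 77.5–88.0%) and in all 8 mice, so the name of a factor of minor classes did not describe it. *Otx1* was positive in 29 cells (13.9%, 9.49–19.3%) of 7 mice and *Irx6* in 11 cells (5.26%, 2.66–9.22%) of 5 mice. The other 4 were rare: *Sp8* was positive in 4 cells, *Irx3* and *Irx5* in 2 cells each, and *Meis2* in 1 cell. The intervals cover counting error only.

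The gap at the threshold was wide for some genes and narrow for others. The lowest positive cell had 13 counts of *Irx6* and the highest negative cell 1, so the 11 cells were the same at any limit from 2 to 13 counts. For *Sp8* the corresponding values were 11 and 3 counts, for *Otx1* 10 and 6, and for *Pbx3* 11 and 9. For *Irx3* they were 10 and 8 counts, a gap as narrow as that of *Pbx3*, and 13 cells held any read of the gene. Reads of *Meis2* were found in 33 cells, but 32 of these had 3 counts or fewer. The *Meis2*-positive cell, with 15 counts, was the cell of mouse 3 with 18441 counts of *Mbp* and 3 of *Slc6a3*, so that without it no cell of the DAT lineage that expressed *Slc6a3* was positive for *Meis2*.

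Per kilobase of exon, the median level in positive cells was highest for *Pbx3*, 31.4 CPM per kb (range 1.76–187), where CPM is the count of a gene scaled to the total of its cell. The levels in positive cells were 14.0 (4.67–70.3) for *Irx6*, 10.1 (2.69–44.8) for *Sp8*, and 8.90 (2.15–38.0) for *Otx1*, ranges that overlapped widely. The 2 *Irx5*-positive cells had 4.76 and 38.3 CPM per kb, the 2 *Irx3*-positive cells 2.79 and 6.46, and the *Meis2*-positive cell 1.73.

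The share of positive cells differed between mice. For *Irx6* it was 11.1, 0, 0, 33.3, 5.26, 11.8, 4.17, and 0% in mice 1 to 8, so that all 3 females were above all 5 males. For *Otx1* it was 11.1, 20.6, 13.3, 16.7, 7.89, 0, 16.7, and 23.8%, and the sexes overlapped. For *Pbx3* it was 61.1, 88.2, 93.3, 75.0, 89.5, 82.4, 66.7, and 85.7%, with overlap again. The *Sp8*-positive cells came from mouse 3 (1 cell), mouse 4 (2 cells), and mouse 8 (1 cell).

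**Figure D1:**
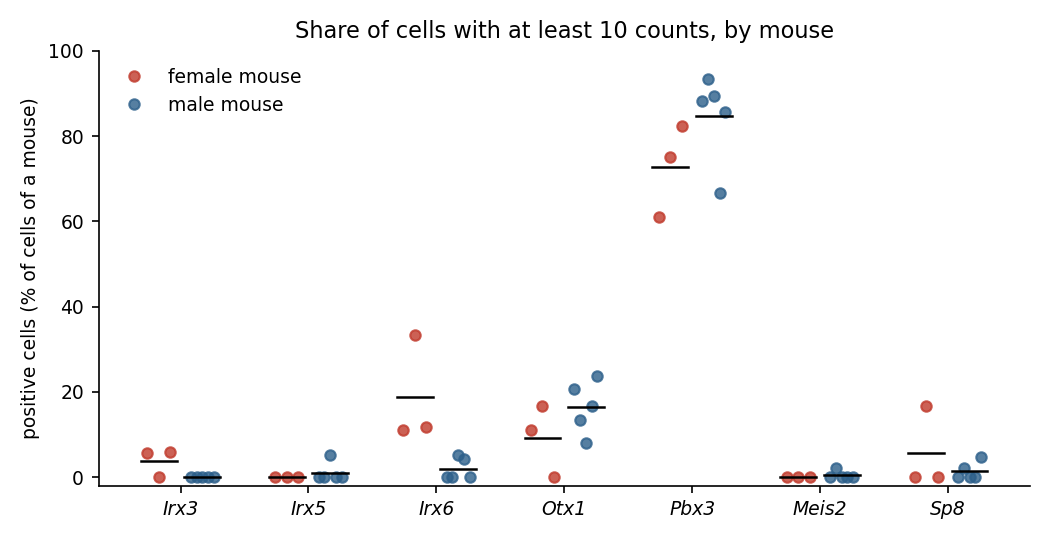
Share of cells with at least 10 counts of each gene (vertical axis, percent of the retained cells of a mouse) for the 7 genes; each point is 1 mouse, red for the 3 females and blue for the 5 males, and the bars are the means of each sex. *Pbx3* lies between 61.1% and 93.3% in every mouse, *Irx6* is above 11% in each female and below 6% in each male, and most mice are at 0 for *Irx3*, *Irx5*, *Meis2*, and *Sp8*.

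The choice of the genes compared no sexes, although the shares compared here are made of the same detection calls. The series description gives another number of mice of each sex than the sample labels, so the comparison holds for the sexes as labelled. *Irx6* was positive in 18.7 ± 12.6% of the cells of females (mean ± SD, n = 3) and 1.89 ± 2.61% of those of males (n = 5), a difference of 16.9 percentage points. In a two-sided exact permutation of the mice p was 0.0357, which is the lowest value that 3 against 5 mice can give, with no adjustment for the 7 genes. Of the 12106 genes positive in at least 10 cells, 0.851% reached that p with a higher share in females and 5.18% with a higher share in males. For the other 6 genes p was between 0.214 and 1: the means of females and males were 72.8 ± 10.8 and 84.7 ± 10.4% for *Pbx3* and 9.26 ± 8.49 and 16.5 ± 6.21% for *Otx1*. Without the 4 cells low in *Slc6a3* they were 75.4 ± 6.81 and 85.0 ± 10.9% for *Pbx3* and 9.72 ± 8.67 and 16.6 ± 6.28% for *Otx1*. The difference for *Irx6* was 14.6 points with each cell thinned to 500000 counts (p = 0.0357, exact permutation test), 17.3 points without the 4 cells low in *Slc6a3* (p = 0.0357, exact permutation test), and 4.94 points with a limit of 50 counts (p = 0.214, exact permutation test). Among mice of the C1 instrument used for females and males alike, which leaves 2 males, it was 16.7 points, where no p below 0.2 is possible. It was 9.55 points without mouse 4 and 16.4–20.7 points without any other single mouse, where no p below 0.0571 is possible. The 2 oldest mice were female and the other C1 instrument held males only, so sex, age, and instrument cannot be fully told apart. *Th* was positive in 83.3, 66.7, and 88.2% of the cells of the 3 females and in 94.1–100% in the males, and the part of this in the difference was not tested.

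In edgeR's quasi-likelihood test on the counts summed per mouse, with Benjamini-Hochberg adjustment over 15529 genes, none of the 6 genes that could be tested changed between the sexes, against 0.0258% of genes higher in males and 0.00644% higher in females. DESeq2 called 190 genes, and 1261 had an unadjusted p under 0.05 in edgeR. *Irx6* had a log2 fold change of −4.07 in males against females (p = 0.037 before and 0.579 after adjustment in edgeR).

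The Iroquois-positive cells were low in *Th*. Any of *Irx3*, *Irx5*, and *Irx6* was positive in 12 cells, 11 of them through *Irx6*. These cells had a median of 10 counts of *Th* (range 1–187), against 5075 (1–22137) in the other 197 cells. *Irx6* was positive in 6 of the 11 cells under 10 counts of *Th* (6 of 8 without the cells low in *Slc6a3*) and in 5 of the 198 *Th*-positive cells. It was positive in 0 of 49 *Neurod6*-positive cells, which allows a share of up to 6.12% if 3 cells are taken as the limit of a count of 0, in 0 of 77 *Grp*-positive cells (up to 3.90%), and in 0 of 15 *Gad1*-positive cells (up to 20.0%). No cell was positive for both an Iroquois gene and *Otx1*, *Meis2*, or *Sp8*, which were positive in 29, 1, and 4 of the 209 cells. Of the 12 cells 9 were positive for *Pbx3*, against 83.3% of all cells.

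The 12 cells shared high counts of *Tac1*, which had 610 or more in each. In mouse 1, cell 17 had 2, 0, and 36 counts of *Irx3*, *Irx5*, and *Irx6*, with 6 of *Th*, 421 of *Slc17a6*, and 1128 of *Tac1*. Cell 19 of that mouse had 15, 9, and 199 counts of the 3 genes, with 187 of *Th*, 184 of *Slc17a6*, and 3399 of *Tac1*. These include the highest *Irx6* count of any cell, and *Tac1*, the precursor of substance P, was high in both cells. *Slc17a6*, the vesicular glutamate transporter VGLUT2, was counted in both. In cell 19 it was below the 283 counts of cell 9 of that mouse, which had no Iroquois read.

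In mouse 4, *Irx6* had 15, 21, 41, and 27 counts in its 4 positive cells, and *Th* had 1, 2, 1, and 4. These are all 4 of the cells under 10 counts of *Th* in that mouse. In mouse 6 the 2 positive cells had 61 and 153 counts of *Irx6*, with 153 and 3 of *Th*, and 6711 and 4730 of *Tac1*.

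In mouse 5, cell 7 was the exception among the Iroquois cells, with 6, 70, and 0 counts of *Irx3*, *Irx5*, and *Irx6*. The other 2 cells of that mouse had 3, 18, and 19 counts, and 8, 7, and 13 counts. The single cell of mouse 7 had 6, 0, and 66 counts, and 51 counts of *Slc6a3*, the fewest of the 12. Across the 12 cells *Slc6a3* had a median of 452 CPM (73.8–845), against 3109 CPM in the other cells. Of the 11 *Irx6*-positive cells 10 held a read of *Irx3* and 7 a read of *Irx5*.

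**Figure D2:**
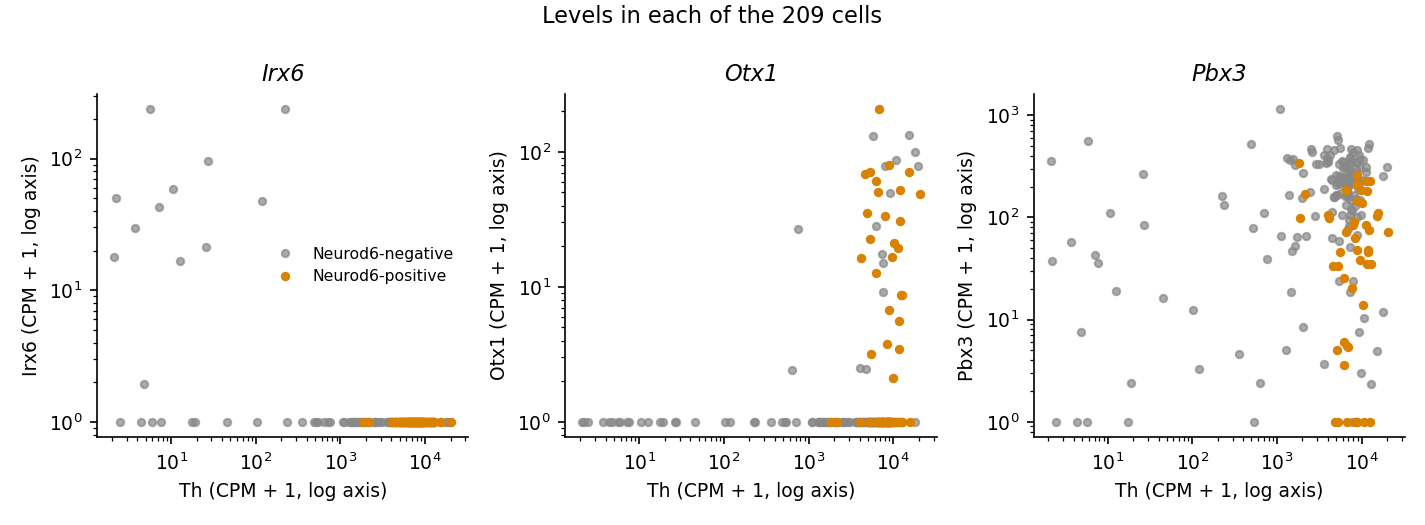
Levels of *Irx6*, *Otx1*, and *Pbx3* (vertical axes, CPM + 1, log axes) against *Th* (horizontal axes, CPM + 1, log axes) in each of the 209 cells; orange points are *Neurod6*-positive cells and grey points the others. The *Irx6*-positive cells sit at the left, at 223 CPM of *Th* or less, the *Otx1*-positive cells at the right, from 757 CPM of *Th*, and *Pbx3* spans the whole range.

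Genes that went with the Iroquois cells were sought by summing the counts of positive and negative cells within each of the 5 mice that had both (12 against 97 cells, median depths 711810 and 780913 counts over all retained cells) and testing 10786 genes with edgeR. The lists of genes read from this test were chosen with earlier results of these data known. In the positive cells 39 genes were higher (0.362% of those tested) and 181 lower (1.68%), counts that include *Irx6*, which defines the class, and *Th* and *Grp*, which the choice of genes had used. Genes were named by size of change if changed alike in all 5 mice and at 10 CPM or more in the higher class. The 7 genes, *Th*, *Neurod6*, *Grp*, and *Gad1* were set aside. Of the genes so named, *4933436C20Rik* had the largest rise, with 63.6, 42.5, 151, 123, and 27.8 CPM in the positive cells of mice 1, 4, 5, 6, and 7. It had at most 0.485 CPM in the negative cells of any mouse, a log2 difference of 9.52 ± 1.37 (SE, adjusted p = 0.00504). The groups did not overlap in any mouse. Where this gene lies relative to the Iroquois genes was not examined.

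Other genes that rose were *Plxdc2* (269 against 30.4 CPM, mean of 5 mice), *Nxph1*, which encodes a ligand of neurexins (at least 298 CPM in the positive and at most 91.9 CPM in the negative cells of any mouse), the matrix protein gene *Edil3* (366 against 29.4 CPM), the metalloproteases *Adamts2* and *Mmp17*, and *Arpp21*, *Gpr165*, *Pgr15l*, and *Gm5174*. Their log2 differences ranged from 3.23 (*Plxdc2*) to 6.60 (*Gm5174*), and the rule that named them took only genes changed alike in all 5 mice. With the mouse as a block *4933436C20Rik*, *Plxdc2*, and *Nxph1* had an adjusted p under 0.05, although each lost the call under some other alternative (highest adjusted p 0.186, 0.0935, and 0.0698), and the other 7 did not pass: *Gpr165* had 0.0645, *Edil3* 0.0694, *Adamts2* and *Arpp21* 0.0736, *Gm5174* 0.119, *Mmp17* 0.154, and *Pgr15l* 0.156.

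Among the genes that fell, *Anxa1*, an annexin of nigral-type dopamine neurons, had 0.193 CPM in the Iroquois cells and 806 ± 853 CPM (SD, n = 5) in the others (log2 difference −11.29 ± 1.25, adjusted p = 0.00136, and 3.56e-05 with the mouse as a block). Under the naming rule, which set *Th* and *Grp* aside, the other 9 with the largest falls had no count in the 12 cells. The retinaldehyde reductase gene *Dhrs3* was at least 190-fold lower and the transcription factor gene *Ebf1* at least 154-fold lower, taking 3 counts over the 12 cells as the floor. These bounds cover counting error only, not amplification or the spread between cells and mice, and *Dhrs3* ranged from 14.1 to 107 CPM in the negative cells of the 5 mice. For *Kcns3*, *Ctsz*, *Ttc12*, *St8sia2*, *Rps6ka6*, *Dgka*, and *Gsn* the falls were at least 81.5- to 156-fold. With the mouse as a block none of these 9 passed, with adjusted p of 0.0881 for *Dhrs3* and 0.151–0.156 for the rest.

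Of 8 genes for the handling of dopamine, 6 fell in the Iroquois cells and none rose, where 1.68% of all genes tested fell, with a median log2 difference of −3.92 against 0.0054 over all genes tested. *Slc6a3*, the transporter itself, had 423, 359, 671, 523, and 67.5 CPM in the positive cells of mice 1, 4, 5, 6, and 7 and 2086, 3175, 3020, 3581, and 2813 CPM in the negative cells (−2.75 ± 0.45, adjusted p = 0.0115), with no overlap. *Drd2*, the dopamine autoreceptor, had at most 1.19 CPM in the positive and at least 82.9 CPM in the negative cells of any mouse (−7.65 ± 0.93, adjusted p = 0.00233). *Aldh1a1* (−6.61), the cofactor synthesis gene *Gch1* (−5.10), *Maob* (−5.22), and *Slc18a2*, the vesicular transporter (−1.92), also fell, but with the mouse as a block *Gch1* (adjusted p = 0.0730) and *Maob* (0.141) did not pass. *Slc18a2* was still counted at 473 ± 193 CPM in the positive cells. *Ddc*, which completes dopamine synthesis, had an adjusted p of 0.0603, and 0.0317 with the block, and *Ret* had 0.387.

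The factors that specify midbrain dopamine neurons did not move together. *En1* had 0, 0, 1.59, 1.10, and 0 CPM in the positive cells of mice 1, 4, 5, 6, and 7 and 52.0, 131, 195, 84.0, and 153 CPM in the negative cells (−7.54 ± 1.01, adjusted p = 0.00335). *Foxa2* fell too (−5.75, adjusted p = 0.0285, but 0.121 with the mouse as a block). The other 5 tested of 9 did not pass: *Nr4a2* had 412 ± 113 CPM in the positive and 372 ± 88.8 CPM in the negative cells (0.24, adjusted p = 0.896), and *Lmx1a* 63.6 ± 68.4 and 50.8 ± 17.4 CPM (0.41, adjusted p = 0.959). The median of the list was 0.24.

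The Iroquois cells were high in *Slc17a6*, which reached 10 counts in 12 of 12 positive and 101 of 197 negative cells. It had 405, 535, 1523, 725, and 944 CPM in the positive cells of mice 1, 4, 5, 6, and 7 and 112, 122, 182, 192, and 161 CPM in the negative cells (2.53 ± 0.37, adjusted p = 0.00533), so every positive value was above every negative value. It was the only 1 of 4 tested genes for GABA and glutamate release that rose, where 0.362% of all genes tested rose and 1.68% fell. *Gad2* fell (−6.32, adjusted p = 0.0152 in edgeR), although in mouse 4 it was at 2.89 and 2.60 CPM. It did not pass with the mouse as a block (adjusted p = 0.156). Over all retained cells *Gad2* reached 10 counts in 0 of 12 positive and 42 of 197 negative cells. Its medians were 2.22 and 2.49 CPM, so the typical cells of the classes were alike. All 15 *Gad1*-positive cells were in the negative class, and the choice of genes had used *Gad1*. *Slc32a1* reached 10 counts in 2 of 12 positive and 16 of 197 negative cells.

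**Figure D3:**
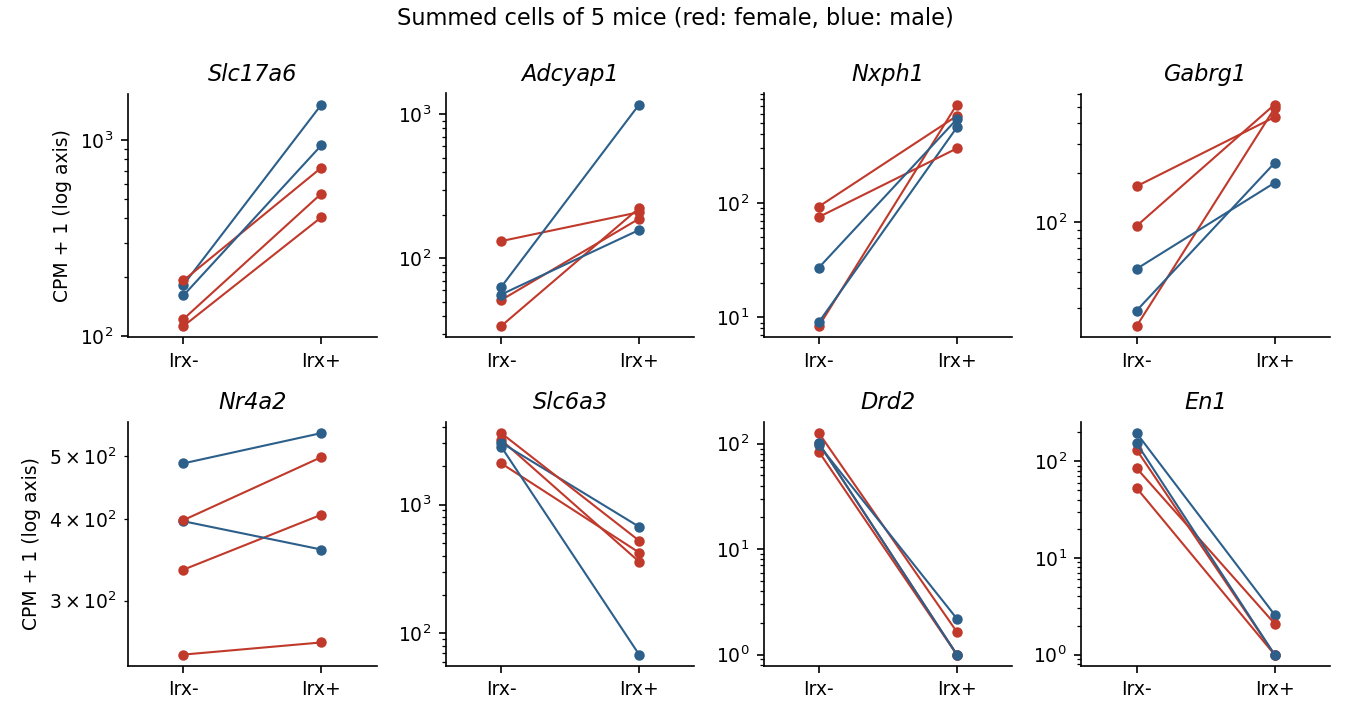
CPM + 1 (vertical axes, log axes) of 8 genes in the summed Iroquois-negative (Irx-) and Iroquois-positive (Irx+) cells of each of 5 mice; lines join the classes of a mouse, red for females and blue for males. *Slc17a6*, *Adcyap1*, *Nxph1*, and *Gabrg1* are higher in the positive cells of each mouse, *Slc6a3*, *Drd2*, and *En1* are lower in each, and *Nr4a2* does not separate the classes.

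Most other factors with a regional pattern had too few counts in these cells. Of the 33 described here 5 could be tested and none passed. Among TALE relatives, *Meis3* had 28.5 CPM in the positive and 26.5 CPM in the negative cells and *Pbx4* 6.89 and 22.8 CPM, and neither these nor *Pknox2* or *Mkx* passed. *Irx1* and *Irx4* had no count in these cells and *Irx2* was positive in none.

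Among peptides and receptors of hypothalamic-type cells, *Adcyap1*, the precursor of PACAP, rose (388 ± 435 against 66.2 ± 37.6 CPM, 2.66 ± 0.62, adjusted p = 0.0457), but not with the mouse as a block (0.120), and its value in mouse 5 (1166 CPM) was far above the 156–222 CPM of the others. *Tac1* had 2032–6268 CPM in the positive cells and 0.0570–614 CPM in the negative cells (4.98 ± 1.83, adjusted p = 0.298, and 0.0249 with the block), the high negative value being that of mouse 6. The other 6 tested of 19 did not pass.

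A further list holds the genes described by the study for a cluster of these same cells, so it is no independent evidence. Of the 8 of its genes described here, *Nxph1*, *Arpp21* (3.47), *Car10* (2.62), and the GABA-A receptor subunit gene *Gabrg1* (2.44) rose, and none fell, where 0.362% of all genes tested rose. *Tac1*, *Cd36* (6.57, adjusted p = 0.0667), *Nos1* (4.03, 0.116), and *Cnr1* (2.24, 0.0811) did not pass. With the mouse as a block *Cd36* and *Nos1* passed (0.0173 and 0.0174) and *Arpp21* (0.0736) and *Car10* (0.156) did not. The median of the 8 was 3.59, against 0.0054 for all genes.

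**Figure D4:**
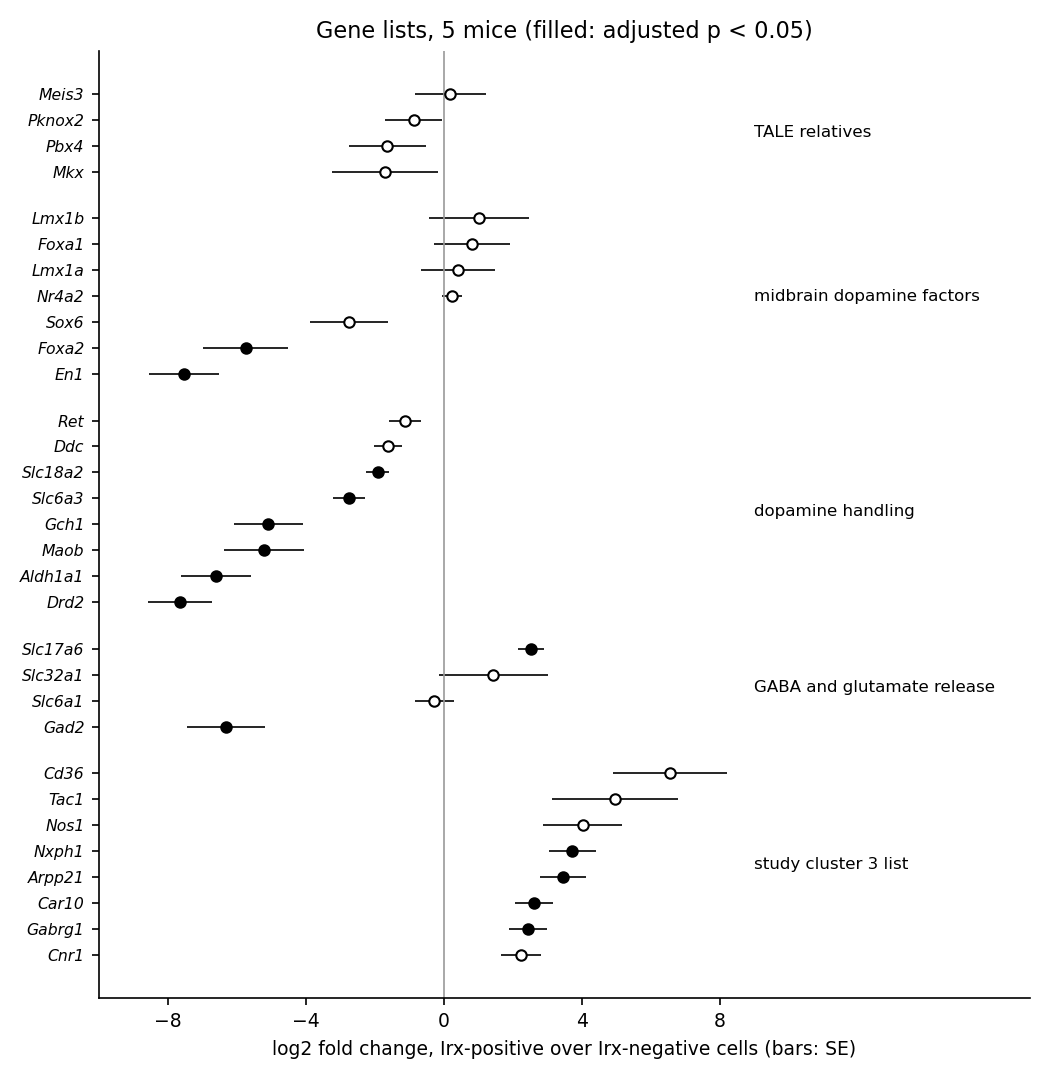
Log2 fold change of Iroquois-positive over Iroquois-negative cells (horizontal axis, bars are SE) for the tested genes of 5 lists in 5 mice; filled points have an adjusted p under 0.05 in edgeR. Of the dopamine handling genes 6 of 8 are filled and to the left of 0, and of the genes listed for a cluster of these cells 4 of 8 are filled and to the right.

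The number of genes that passed depended on the mice and the fit. In all, 220 genes passed, 49 with the mouse as a block (41 of them shared with the 220) and 547 with DESeq2. The split into higher and lower was 17 and 32 with the block and 203 and 344 with DESeq2. The number was 23 without mouse 4, 35 without mouse 5, 42 without mouse 6, 40 without mouse 7, 216 without mouse 1, and 216 without the cells low in *Slc6a3*. Of 33 genes that passed and came under the naming rule or a list, 24, 26, 25, and 25 lost the call without mice 4, 5, 6, and 7. All of them but *Anxa1* (highest adjusted p 0.0451) lost the call under at least 1 alternative. The highest adjusted p was 0.0555 for *Drd2*, 0.0577 for *Slc6a3*, 0.0604 for *Aldh1a1*, 0.0670 for *En1*, 0.141 for *Slc17a6*, 0.214 for *Slc18a2*, 0.417 for *Gabrg1*, 0.603 for *Car10*, and 0.697 for *Arpp21*, the largest of the 33. For *Irx6* alone (11 against 98 cells) 0.372% of 10750 genes were higher and 1.87% lower, 241 in all, with 44 in the blocked fit and 237 without the cells low in *Slc6a3*. No gene passed a test for a different response in females and males (interaction in edgeR, 0 of 10786 genes, 768 with an unadjusted p under 0.05, lowest adjusted p 0.55). Astrocyte markers, 5 of 5, were at 0 in the Iroquois cells and summed to 0–616 CPM in the negative cells (median 0.171). Summed oligodendrocyte markers had 1.32–110 CPM in the Iroquois cells (median 54.9) and 15.3–325 CPM in the negative cells (median 31.9). *Mbp* was positive in 8 of the 12 Iroquois cells and in 48 of the 197 others (24.4%). Endothelial and ependymal markers summed to 0–102 and 0–10.0 CPM. In the Iroquois cells *Cldn5*, *Pecam1*, *Flt1*, and *Foxj1* were at 0 and *Tekt1*, which made up the whole sum, was positive in 3 of 12 (25.0%), against 7 of 197 others (3.55%). The part of these markers in the differences was not tested.

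Across the 209 cells the gene most like *Irx6* was *Cd36*, which encodes a fatty acid transporter (Pearson r of log2(CPM + 1) = 0.81), followed by *4933436C20Rik* (0.79), *Tac1* (0.76), *Nos1* (0.60), and *Rxfp3* (0.59). All 11 *Irx6* cells were among the 15 cells positive for *Cd36* and among the 32 positive for *Nos1*. *Irx3* was most like *4933436C20Rik* (0.89), *Tac1* (0.81), *Irx6* (0.80), *Cd36* (0.73), and *Nos1* (0.64), and *Irx5* was most like *4933436C20Rik* (0.73), *Tac1* (0.67), *Pgr15l* (0.59), *Ust* (0.58), and *Irx6* (0.56). These correlations rest on few cells, 12 with a read of *Irx6* and 13 with a read of *Irx3*, which share depth and mouse. Without the cells low in *Slc6a3* each of them was the same to the second decimal, with *Irx3* and *4933436C20Rik* at 0.89.

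All 29 *Otx1*-positive cells were *Th*-positive, as were 169 of the 180 *Otx1*-negative cells (93.9%). None of the cells under 10 counts of *Th* was *Otx1*-positive, 0 of 11 with and 0 of 8 without the cells low in *Slc6a3*. The positive cells had 437 counts of *Th* at the least (median 7095, highest 22137). *Otx1* was positive in 18 of 49 *Neurod6*-positive cells (36.7%, exact 95% interval 23.4–51.7%) and in 11 of 160 *Neurod6*-negative cells (6.88%, 3.48–12.0%). In *Grp*-positive cells the share was 15 of 43 with *Neurod6* (34.9%) and 1 of 34 without (2.94%). Of the cells positive for *Neurod6* alone 3 of 6 had *Otx1*, and of the double-negative cells 10 of 126 (7.94%). None of the 15 *Gad1*-positive cells was positive.

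Within mice the share of *Otx1*-positive cells was higher among *Neurod6*-positive than *Neurod6*-negative cells in each of 6 mice (for example 50.0 against 5.41% in mouse 3 and 33.3 against 3.13% in mouse 5), was 0 in both in mouse 6, and could not be compared in mouse 4, which had no *Neurod6*-positive cell. The cell with the most *Otx1*, in mouse 5, had 224 counts, together with 672 of *Neurod6*, 536 of *Grp*, and 1395 of *Slc17a6*. It had 0 of *Pbx3*.

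**Figure D5:**
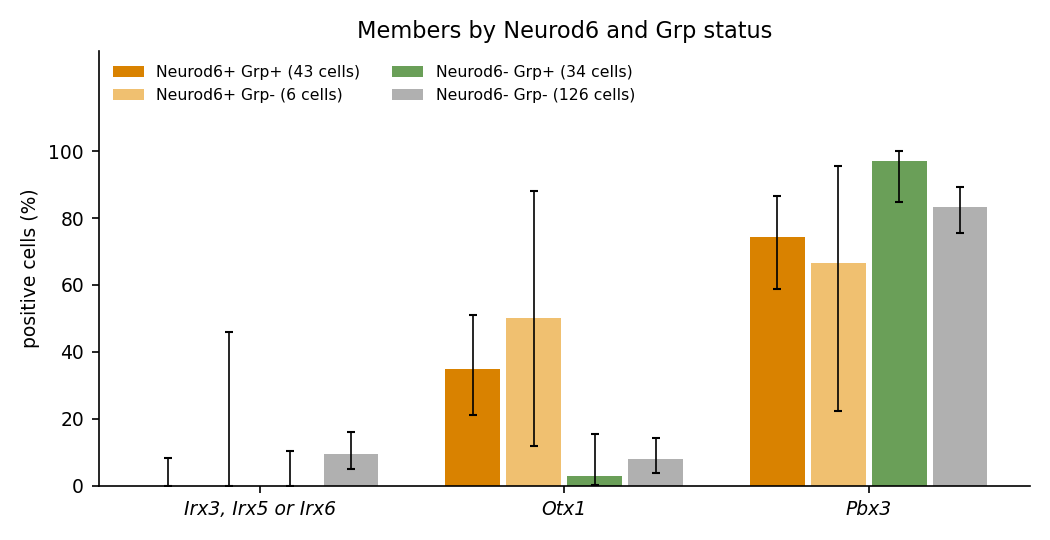
Share of cells positive for any Iroquois gene, *Otx1*, and *Pbx3* (vertical axis, percent) among cells grouped by *Neurod6* and *Grp*; bars are shares of the cells given in the legend and error bars exact 95% binomial intervals, which cover counting error only. *Otx1* is at 34.9% and 50.0% in the *Neurod6*-positive groups and at 2.94% and 7.94% in the others, and *Pbx3* is at 97.1% in cells with *Grp* alone.

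*Otx2* was the gene most like *Otx1* (r = 0.59), and 22 of the 29 *Otx1* cells were positive for it. It was followed by the potassium channel subunit gene *Kcnab1* (0.56, 27 of the 29), the activin inhibitor gene *Fst* (0.50), *Pcp4l1* (0.45), and *Neurod6* (0.44), and without the cells low in *Slc6a3* these 5 were 0.58, 0.56, 0.49, 0.45, and 0.44. In the 5 mice with at least 3 cells in each class, all male (25 against 137 cells), 0.00787% of 12713 genes were higher, which was *Otx1* itself, and 0% lower. DESeq2 called 60 genes, and 654 had an unadjusted p under 0.05 in edgeR. Within this fit, *Otx2* had 66.8, 5.73, 200, 58.9, and 133 CPM in the positive cells of mice 2, 3, 5, 7, and 8 and 15.0, 3.25, 12.4, 66.9, and 4.54 CPM in the negative cells (log2 difference 2.27 ± 0.92, adjusted p = 0.946), higher in 4 of 5 mice. *Sox6*, a factor of nigral-type neurons, had 1.43, 8.35, 0.781, 15.7, and 0 CPM and 47.1, 49.8, 69.5, 17.4, and 16.0 CPM (−2.82 ± 1.05, adjusted p = 0.900), lower in 5 of 5. None of the 8 dopamine handling genes, 9 midbrain dopamine factors, 5 TALE relatives, 8 other regional factors, or 5 genes for GABA and glutamate release tested passed: *Slc6a3* had a difference of 0.05 ± 0.32, and *En1* 0.38 ± 0.23.

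With a limit of 50 counts of *Otx1*, 69 genes passed, but there 1 cell per class was enough and 7 mice entered (12 against 180 cells), so the limit and the mice changed together. Without the cells low in *Slc6a3* 1 gene passed. With the mouse as a block 0 passed, and the adjusted p for *Otx2* was 0.765. Oligodendrocyte markers summed to 2.32–52.9 CPM in the *Otx1*-positive and 15.0–1168 CPM in the negative cells, and their part in these values was not tested.

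*Pbx3* was the factor of the majority. It was positive in 167 of 198 *Th*-positive cells (84.3%) and 7 of 11 *Th*-negative cells (63.6%, 6 of 8 without the cells low in *Slc6a3*), with a lowest count of 11, a median of 146, and a highest count of 1046 in positive cells. Its share was 33 of 34 (97.1%, 84.7–99.9%) in cells with *Grp* alone, 105 of 126 (83.3%, 75.7–89.4%) in double-negative cells, 32 of 43 (74.4%, 58.8–86.5%) in *Neurod6*- and *Grp*-positive cells, and 8 of 15 (53.3%, 26.6–78.7%) in *Gad1*-positive cells. It was 21 of 29 (72.4%) in *Otx1*-positive cells. These intervals pool the cells of all mice and cover counting error only, so they do not compare the groups. Among *Neurod6*-negative cells alone the share ran from 60.0% in mouse 1 to 95.8% in mouse 2. The level of *Pbx3* correlated at r = −0.32 with *Neurod6* and −0.22 with *Otx1* across cells.

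In the test of *Pbx3*-positive against negative cells (8 mice, 174 against 35 cells) 0.0432% of 11587 genes were higher, 5 in all, and 0% lower. Besides *Pbx3* these were *Abcb6*, a porphyrin transporter, *Slc27a2*, a fatty acid transporter, and, named after their values were seen, *St8sia5* and *Pdzd2*. *Abcb6* had 20.4–30.2 CPM in the positive cells of the 8 mice and 0–1.47 CPM in the negative cells (log2 difference 5.88 ± 0.91, adjusted p = 0.0197), and *Slc27a2* 9.55–55.8 and 0–1.58 CPM (5.07 ± 0.86, adjusted p = 0.0296). The ranges of both genes were apart. *St8sia5* had 5.43 ± 0.90 and *Pdzd2* 3.40 ± 0.58, with the same adjusted p of 0.0296. With the mouse as a block only *Pbx3* passed, and adjusted p for the 4 ranged from 0.161 to 0.218. Without the cells under 10 counts of *Slc6a3*, which left 7 mice, 1 gene passed, and *Abcb6* (adjusted p = 0.0714) and *Slc27a2* (0.133) did not. The number was also 1 without mouse 3, mouse 5, or mouse 6, and was 3 without mouse 7, 8 without mouse 1, and 11 without mouse 2. DESeq2 called 77 genes.

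The *Pbx3*-negative cells were not a single kind. Their *Slc6a3* had 230, 1591, 1319, 1115, 1009, 437, 1762, and 1878 CPM in mice 1 to 8, below the 2806, 3458, 5235, 2249, 2883, 3803, 3053, and 2348 CPM of the positive cells in every mouse (1.38 ± 0.33, adjusted p = 0.257). Oligodendrocyte markers summed to 4.84–13799 CPM in them (median 102) and to 6.50–53.0 CPM (median 24.0) in the positive cells, with *Mog* at 0 in both. Astrocyte markers summed to 0–1506 CPM in the negative and 0–47.0 CPM in the positive cells, the median number of genes detected was 8199 and 9289.5, and the part of these in the differences was not tested. None of the tested genes of the dopamine handling, midbrain factor, TALE, other regional, or GABA and glutamate release lists passed. The genes most like *Pbx3* were *Rab3c*, a small GTPase of synaptic vesicles (r = 0.53), *Atp2b2*, a calcium pump (0.48), *Cadm2* (0.47), *Caln1* (0.47), and *9630033F20Rik* (0.47), each positive in at least 140 cells. Without the cells low in *Slc6a3* these were 0.49, 0.43, 0.44, 0.44, and 0.44.

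*Sp8* was positive in 4 cells, all *Th*-positive and none with a read of *Neurod6* or *Grp*. The cell of mouse 3 had 42 counts of *Sp8*, 74 of *Otx1*, 8 of *Pbx3*, and 9286 of *Th*. In mouse 4, 1 cell had 104 counts of *Sp8* with 67 of *Otx1*, 2 of *Pbx3*, and 7732 of *Th*, and the other had 32 of *Sp8* with 0 of *Otx1*, 1 of *Pbx3*, and 9459 of *Th*. The cell of mouse 8 was unlike these, with 11 counts of *Sp8*, 560 of *Gad1*, 57 of *Pbx3*, and 1551 of *Th*. The first 3 held 156–212 counts of *Slc17a6* and the last 1 count.

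With these 4 cells against 74 in 3 mice, 0% of 10913 genes were called higher and 0% lower by edgeR, whereas 1035 had an unadjusted p under 0.05 and DESeq2 called 643. Leaving out the cells low in *Slc6a3* gave 0 as well. *Aldh1a1* had 56.3 CPM in the positive and 2822 CPM in the negative cells (−5.52 ± 0.99, adjusted p = 0.183), lower in 3 of 3 mice. *Actn2* (r = 0.41) and *Kcnv1* (0.39) were most like *Sp8* and each was positive in 3 of the 4 cells, followed by *Lrig1* (0.32), *Fbn2* (0.30), and *Pros1* (0.29), or 0.41, 0.39, 0.32, 0.30, and 0.32 without the cells low in *Slc6a3*. For *Irx3*, *Irx5*, and *Meis2* too few mice had positive cells for a test across genes. The genes most like *Meis2* were *Gjc3* (0.34), *Amotl2* (0.32), *Rdh10* (0.31), *5430431A17Rik* (0.30), and *Arhgef10* (0.30), and each of these but *Rdh10* reached 10 counts in the cell with myelin genes. Without the cells low in *Slc6a3* they were 0.21, 0.20, 0.35, 0.14, and 0.11.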

How the data were processed

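The deposited files hold raw counts per gene and cell. As the methods and labels state, the authors used Trimmomatic 0.3.2 for trimming, TopHat2 2.1.1 for alignment to GRCm38, and featureCounts 1.5.0-p3 for counting. The SMARTer and Nextera XT kits do not mark strand. Sexes and ages are those of the sample labels, from which the series description differs.

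Cells with at least 500000 counts were kept. The genes and gene lists were chosen with earlier results of these data known. Counts were added up by mouse, or by mouse and class where a class had at least 3 cells in 3 mice (otherwise at least 1 cell), and went into the quasi-likelihood test of edgeR (version 4.0.16, R version 4.3.3) after TMM scaling and filterByExpr, adjusted p-values being those of Benjamini and Hochberg (threshold 0.05). DESeq2 1.42.0 was the other tool. Class values are TMM-scaled CPM, and the SE of a log2 difference is that difference over the root of F. Rows of the 7 genes, *Th*, *Neurod6*, *Grp*, and *Gad1* are not read as tests where they define classes. Shares were compared by exact permutation over mice.

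Both classes come from the same mice, so the mouse was tried as a block. After class means were removed, the 2 classes of a mouse correlated at −0.0025 to 0.159 for Iroquois, 0.0741 to 0.229 for *Otx1*, 0.0175 to 0.150 for *Pbx3*, and −0.0138 to 0.0747 for *Sp8*. Genes named are the 7, listed genes, for each direction of a test up to 10 with the largest change among those changed alike in every mouse and at 10 CPM or more in the higher class, and for each of the 7 the 5 genes with the highest correlation of log2(CPM + 1) among those positive in at least 10 cells. Certain genes, some of them in these lists, are not reported here and were left out of the lists, sums of markers, and correlations. Scripts were tested on simulated data. Versions were 3.11.15 for Python, 2.4.6 for numpy, 2.3.3 for pandas, 1.17.1 for scipy, and 3.10.9 for matplotlib.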

Additional observations from a re-analysis of the deposited data

Results flagged for a closer look

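Among the 5 males, 1 mouse stood apart from the other 4 in 5 of 13 sets of values examined, where chance alone flags about 1 in 20 groups of continuous values. That rate does not hold for values that are 0 in 4 mice and above 0 in 1, which always stand apart, as for the shares of *Irx5* and *Meis2*. The share of *Irx5*-positive cells was 5.26% in mouse 5 and 0 in the other 4 males, and summed *Irx5* was 2.98 CPM there and at most 0.0686 CPM in the other males. Summed *Irx6* was 3.54 CPM in mouse 7, from 1 cell. The share of *Pbx3*-positive cells was 66.7% in mouse 7 against 85.7–93.3% in the other males. The share of *Meis2*-positive cells was 2.22% in mouse 3, from the 1 cell with myelin genes. Groups of 3 females were not examined in this way.

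Among the 175 cells that were left out for having under 500000 counts (median 88436), 5 were positive for *Otx1* and 57 for *Pbx3*, and 1 was positive for *Irx3*. No cause was tested for any of these values.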

How the results depend on the processing

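Counts of genes that passed moved by over 1.5 times under these alternatives. For Iroquois cells (220), DESeq2 gave 547, no filter 101, the mouse as a block 49, cells with at least 750000 counts 12, and positive from 50 counts 640 (these last 2 with 4 mice and 5 against 37 and 5 against 92 cells, so mice and cells changed with the limit), and leaving out 1 mouse gave 23–216 (23, 35, 42, and 40 without mice 4, 5, 6, and 7). For *Irx6* (241), the same alternatives gave 570, 78, 44, 12, and 0 (the last 2 with 4 and 3 mice), and 31–366 (366, 35, 31, and 33 without mice 4, 5, 6, and 7). For *Otx1* (1), DESeq2 gave 60, the block 0, at least 750000 counts 0, and positive from 50 counts 69 (7 mice with 1 cell per class allowed), with 1–3 on leaving out a mouse (3 without mouse 3). For *Pbx3* (5), DESeq2 gave 77, no filter 2, the block 1, at least 750000 counts 2, positive from 50 counts 1, negative at 0 counts 140 (165 against 15 cells; this and the fit at 750000 counts had 7 mice, 1 cell per class being enough), and without cells under 10 counts of *Slc6a3* 1, with 1–11 (8, 11, 1, 1, 1, and 3 without mice 1, 2, 3, 5, 6, and 7). For *Sp8* (0), DESeq2 gave 643 and no filter 5. Between the sexes (5), DESeq2 gave 190, at least 750000 counts 3, and the C1 instrument used for both sexes 0. Of the 7 genes, 3 were positive in at least 10 cells, and 7 from 1 count. For shares between the sexes, 1 gene had p under 0.05, against 2 from 1 count, 0 from 50 counts, 0 on that instrument, and 0–0 on leaving out a mouse, where the design allows none. The interaction with sex, the alternative without cells under 10 counts of *Slc6a3*, the correlations without these cells, the thinned shares, and the shares on 1 instrument were chosen after seeing the data.

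Directions that reversed were all of differences that passed no test. The female minus male share turned to 11.9 points for *Irx5*, 0.521 for *Pbx3*, and 3.00 for *Meis2* from 1 count, to 1.79 for *Pbx3* and −2.23 for *Sp8* with at least 750000 counts, and to −1.40 for *Sp8* without mouse 4. The log2 change in males turned to 0.30 for *Irx5* and 1.95 for *Sp8* without mouse 4. The Pbx3 log2 fold change, males against females, turned to −0.00022 with relative log expression, −9.96e-05 with DESeq2, −0.147, −0.116, and −0.0630 without mice 1, 3, and 5, −0.389 with at least 750000 counts, and −0.310 on the instrument used for both sexes. The causes were not tested. Relative log expression moved the median of all genes in the Iroquois comparison from 0.0054 to 0.115, and the block to −0.562. For *Sp8*, fits at 750000 counts, at 50 counts, and on thinned cells could not be run, because under 3 mice had both classes. With 12 Iroquois and 4 *Sp8* cells, that a difference did not pass does not show that it is absent.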
